A study of Mus musculus with 8 samples.

Results

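Open chromatin was examined at 10 genes of the epithelial to mesenchymal transition, chosen by name: the transcription factors Snai1, Snai2, Zeb1, Zeb2, Twist1 and Prrx1, the cadherins Cdh1 and Cdh2, and the structural genes Vim and Fn1. They are 10 of 21911 protein-coding genes in the annotation used, and their windows, each gene with 20 kb on both sides, held 77 of the 84777 consensus regions, meaning stretches of merged peaks called by at least 2 libraries. The assay was ATAC-seq, in which a transposase cuts accessible DNA and sequenced fragments gather over open sites. The cells were SN4741, a mouse line labelled as WT neural precursor cells, made from embryonic substantia nigra with a temperature-sensitive T antigen driven by the tyrosine hydroxylase promoter. In 4 libraries the cells were at 37 °C in 10% serum, and in 4 they had spent 48 h at 39 °C in 0.5% serum, so temperature and serum cannot be told apart. All libraries come from 1 line, whose karyotype the study describes as polyploid and unstable, and copy number was not measured here. The labels do not say whether replicates were separate cultures, so the p-values measure the spread between these libraries, which may be technical.

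In the transition, cells held together by E-cadherin (Cdh1) lose their junctions and become motile. SNAI and ZEB factors bind E-box sequences and repress Cdh1, while TWIST and PRRX factors favour the mesenchymal state. N-cadherin (Cdh2), the intermediate filament protein vimentin (Vim) and the matrix glycoprotein fibronectin (Fn1) are its usual markers, and neural precursors also normally use N-cadherin and vimentin.

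A promoter peak was any peak within 1 kb of an annotated start of the gene, and the one with the best score was taken. Its score was the percentile of its −log10 q among all peaks of the same library, where 100 would be the strongest peak and 0 was assigned where no peak was called. The 37 °C lists held 74026 to 92013 peaks from 49787392 to 169183346 fragments (49.8 M to 169 M), and the 39 °C lists 54845 to 68410 peaks from 52.7 M to 71.2 M of them. A longer list adds weak peaks at the bottom and so raises the percentile of any given peak. Many of the comparisons are therefore also given with equal numbers of peaks, the 54845 best of each list. The 37 °C replicates 1 and 4 were the deepest libraries, and 39 °C replicate 4 had the fewest peaks. Of the neural precursor markers, Nes, Sox2, Pax6, Msi1 and Notch1 had a promoter peak in all 8 libraries. Sox1 had one in 7 libraries and Hes5 in 2, while Fabp7 and Prom1 had none. Of 10 markers of other cell types, 6 (Pdgfra, Pdgfrb, Cd68, Rbfox3, Gfap and Mbp) also had a peak in all 8, Pecam1 had one in 7, and Dcn, Cdh5 and Ptprc had none, so promoter presence does not set the labelled cell type apart.

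The mesenchymal side of the set was open at both temperatures, and the epithelial gene Cdh1 was the exception. Of the 10 members, 9 had a promoter peak in all 8 libraries, against 59.9% of all protein-coding genes. Cdh1 had one in 37 °C replicates 1, 2 and 4 only. The order of the mean promoter percentile at 37 °C ran from Vim (99.4) through Cdh2 (96.9), Twist1 (95.6), Fn1 (95.1), Snai1 (92.1), Zeb2 (91.4), Prrx1 (90.7), Snai2 (90.5) and Zeb1 (84.2) to Cdh1 (13.3). Neighbours from Cdh2 to Snai2 overlapped in their ranges over the 4 libraries, whereas all 4 values of Vim lay above those of Cdh2. Within each 37 °C library Cdh2 lay above Twist1, Fn1 above Snai1 and Zeb2 above Prrx1, while the other neighbours in that range changed order. Zeb1 lay below Snai2 and far above Cdh1 in every 37 °C library. Promoter percentiles at 39 °C of the best-scoring peak lay below all 37 °C values for 1 member, Fn1, while 35.2% of all genes met that condition. None lay above all 37 °C values, a condition met by 0.338% of all genes. On lists cut to equal numbers no member was lower in this way (10.3% of all genes) and 2 members, Twist1 and Zeb1, were higher (4.73% of all genes). Across all 21911 genes no adjusted p of the exact permutation test was below 0.05 (smallest 0.0804, with 7788 genes under 0.05 before adjustment). An unadjusted p of 4 against 4 libraries cannot be less than 0.0286, and the adjusted p also depends on how many genes reach that floor. The p-values below are unadjusted.

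**Figure D1:**
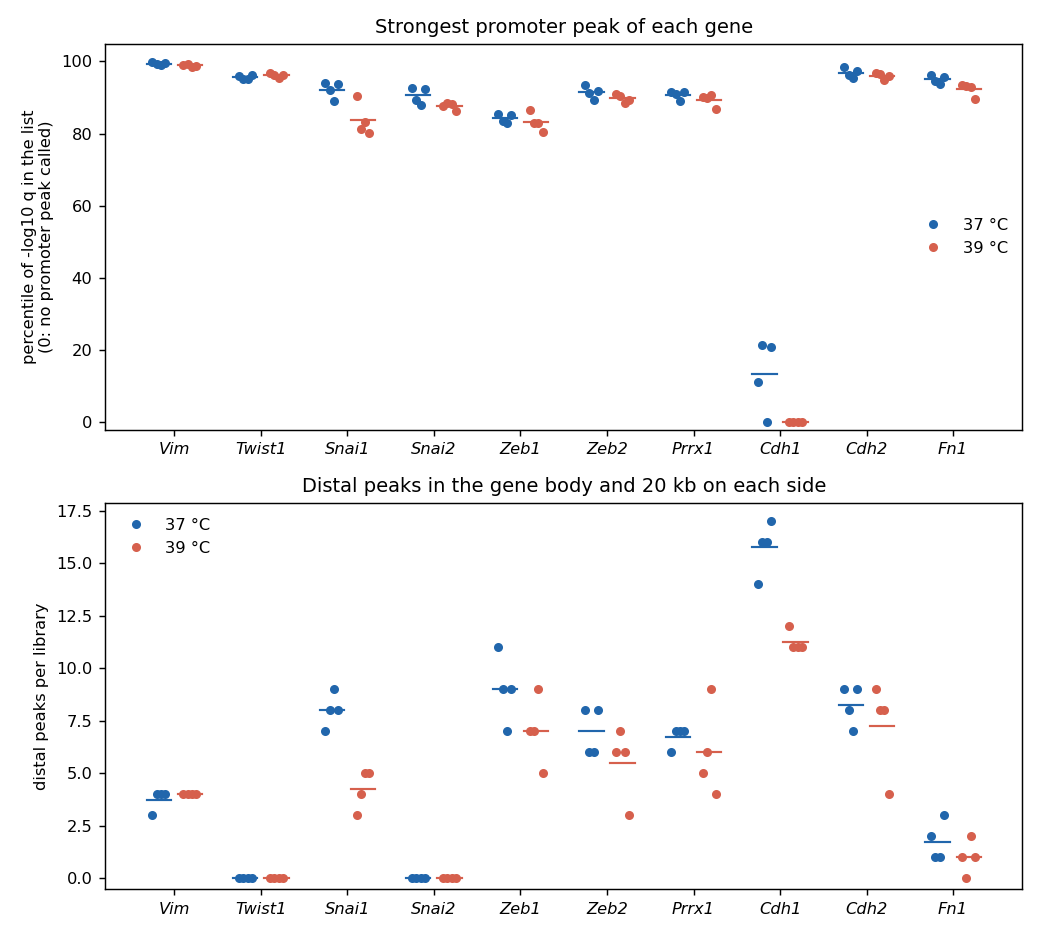
Upper panel: percentile of the strongest promoter peak of each of the 10 genes in each library (0 where no peak was called). Lower panel: number of distal peaks per library. Points are libraries (4 at 37 °C in blue, 4 at 39 °C in red) and bars are means. All genes but Cdh1 sit above 80 in the upper panel, and Cdh1 has the most distal peaks, 14 to 17 at 37 °C and 11 to 12 at 39 °C.

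Distal peaks were those with a summit in the window and no overlap with 1 kb around any gene's start. The mean count was lower at 39 °C for 7 of 10 members, against 58.1% of all genes, and for 3 of 10 with equal numbers of peaks, against 25.7% of all genes on that scale. Twist1 and Snai2 had no distal peak in any library. All 39 °C counts lay below all 37 °C counts for 2 members, Snai1 and Cdh1 (14.1% of all genes), and above them for none (0.31% of all genes). The counts for lists of equal length were 0 members lower (3.1% of all genes) and 1 member higher, Zeb1 (2.78% of all genes).

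Snai1 (ENSMUSG00000042821.7, mm10 chromosome 2, 167538195 to 167542814, plus strand) encodes the zinc finger repressor SNAIL. Its promoter percentile was 94.0, 92.0, 88.9 and 93.6 in 37 °C replicates 1 to 4 and 90.5, 81.3, 83.2 and 80.2 in 39 °C replicates 1 to 4. The groups overlapped through 39 °C replicate 1, and the difference of −8.32 had an exact permutation p of 0.0571. With equal numbers of peaks the difference was −7.04, again with overlap (exact permutation p = 0.0571). In 37 °C replicates 1, 2 and 4 and in 39 °C replicate 1 the promoter peak ran on past the end of the gene and had its summit 5341 to 5475 bp downstream of the start. In the other 4 libraries it ended sooner and had its summit 80 to 121 bp upstream of the start. Its width averaged 7595 ± 1813 bp (SD, n = 4) at 37 °C and 4569 ± 2245 bp (SD, n = 4) at 39 °C. Scored over the whole merged region, including the downstream summit as a separate peak, Snai1 averaged 92.4 ± 1.73 at 37 °C and 89.6 ± 1.86 at 39 °C (SD, 4 libraries each), and the groups overlapped. The promoter sequence is shown because it carries an E-box of the kind that SNAI and ZEB factors bind, the only match among the 5 member promoters in the RefSeq table (Vim, Twist1, Snai1, Zeb2 and Prrx1). The capitals mark CACCTG, searched on both strands, which 20.2% of 32851 RefSeq promoters of 300 bases hold.
Snai1 promoter, the 250 bases before the start, chr2:167537945-167538194, plus strand, GRCm38.p6: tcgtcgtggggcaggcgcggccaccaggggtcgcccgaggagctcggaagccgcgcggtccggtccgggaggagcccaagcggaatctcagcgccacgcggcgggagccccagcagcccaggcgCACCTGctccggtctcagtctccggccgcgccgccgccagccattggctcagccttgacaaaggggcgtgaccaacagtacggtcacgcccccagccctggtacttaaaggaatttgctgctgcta

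Around Snai1 the distal peaks thinned out at 39 °C. Counts were 7, 8, 9 and 8 at 37 °C and 3, 4, 5 and 5 at 39 °C, groups that did not overlap (difference −3.75, exact permutation p = 0.0286). Both means were 3.5 with equal numbers of peaks. Counts of peaks are not like for like between libraries, since stretches joined in some were split in others, as downstream of the promoter. By region, 37 °C replicates 1, 2 and 4 called all 7 distal regions of the window, and replicate 3, the shallowest library, called 5. The strongest distal region by mean percentile lay 12.4 kb downstream of the start (chr2:167550042-167551823) and scored 73.6, 73.0, 75.9 and 77.8 at 37 °C and 64.9, 65.5, 68.9 and 54.1 at 39 °C. These groups overlapped once the lists were of equal length. A weak region 18.2 kb upstream (chr2:167519738-167520318), in no annotated gene, was called in all 4 libraries at 37 °C, at percentiles of 14.9, 13.3, 8.33 and 27.2, and in none at 39 °C. Regions 9.7 kb upstream and 10.8 kb downstream were called in 3 libraries at 37 °C and none at 39 °C, at mean percentiles of 16.8 and 2.43.

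Snai2 (ENSMUSG00000022676.7, chromosome 16, 14705852 to 14709385, plus strand) encodes the related repressor SLUG. Its single promoter region scored 92.6, 89.3, 88.0 and 92.2 at 37 °C and 87.5, 88.4, 88.1 and 86.2 at 39 °C. The groups overlapped (difference −2.98, exact permutation p = 0.0857), and with equal numbers of peaks the difference was −0.45.

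Twist1 (ENSMUSG00000035799.6, chromosome 12, 33957671 to 33959829, plus strand), a basic helix-loop-helix factor, likewise had 1 region in its window, a peak of 2696 to 3079 bp over the start. It scored 95.9, 95.2, 95.2 and 96.2 at 37 °C and 96.8, 96.2, 95.4 and 96.3 at 39 °C, with overlapping groups. On lists of equal length the means were 93.5 ± 0.161 and 95.6 ± 0.915 (SD, 4 libraries each) and every 39 °C library lay above every 37 °C library (exact permutation p = 0.0286). G and C made up 83.1% of the bases within 100 bp of its summit, against a median of 50.7% over all consensus regions. The promoter holds 1 CCGCCC, the core recognised by SP and KLF factors, found in 35.7% of RefSeq promoters and marked in capitals.
Twist1 promoter, the 250 bases before the start, chr12:33957421-33957670, plus strand, GRCm38.p6: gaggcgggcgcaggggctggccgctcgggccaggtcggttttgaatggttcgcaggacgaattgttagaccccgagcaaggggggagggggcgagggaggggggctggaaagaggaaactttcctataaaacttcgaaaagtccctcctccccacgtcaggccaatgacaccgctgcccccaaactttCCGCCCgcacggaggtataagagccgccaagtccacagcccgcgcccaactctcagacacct

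Zeb1 (ENSMUSG00000024238.15, chromosome 18, 5591860 to 5775467, plus strand), a zinc finger and homeobox repressor, had the lowest promoter percentile among the members open in all libraries. Values were 85.5, 83.5, 83.0 and 85.0 at 37 °C and 86.6, 82.9, 82.8 and 80.5 at 39 °C, with overlapping groups (difference −1.05, exact permutation p = 0.514). The sign turned on lists of equal length, to 76.6 ± 1.21 at 37 °C and 80.6 ± 2.33 at 39 °C (SD, 4 libraries each), without overlap (exact permutation p = 0.0286). Its distal count was 11, 9, 7 and 9 at 37 °C and 7, 7, 9 and 5 at 39 °C, and with equal numbers of peaks 4, 3, 3 and 4 against 5 in each 39 °C library, again without overlap (exact permutation p = 0.0286). The sign of both Zeb1 differences therefore depends on the length of the lists. The strongest distal region, in an intron 148.7 kb into the gene, scored 89.5, 87.7, 85.7 and 90.5 at 37 °C and 85.7, 87.7, 88.3 and 82.8 at 39 °C, above the promoter in 7 of 8 libraries. Regions 5.1 kb upstream of the start and 196.6 kb downstream of it, past the gene's end, were the 2 of 77 that were in the best 54845 peaks of every 39 °C library and of no 37 °C library, although the full lists had them in all 8. Of all consensus regions 1.33% met that condition. A region 8.1 kb upstream was called at 37 °C in 3 libraries, at 32.1, 22.5 and 30.5, and at 39 °C in none.

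Zeb2 (ENSMUSG00000026872.17, chromosome 2, 44983632 to 45117395, minus strand), its paralogue, was scored by a peak 7.2 kb inside the gene, at internal annotated starts. This peak scored 93.5, 91.1, 89.3 and 91.7 at 37 °C and 90.9, 90.5, 88.4 and 89.2 at 39 °C, with overlapping groups (exact permutation p = 0.143). The peak over the outermost start was weaker, at 77.6, 77.2, 74.8 and 79.4 at 37 °C and 71.6, 70.3, 69.7 and 65.8 at 39 °C, and these groups did not overlap (difference −7.88, exact permutation p = 0.0286). They did overlap with equal numbers of peaks, at means of 66.2 and 64.7. The distal counts were 8, 6, 6 and 8 at 37 °C and 6, 7, 6 and 3 at 39 °C, with overlap. The strongest distal region lay past the 3′ end, 148.0 kb from the start (chr2:44968459-44969914). It scored 83.7, 83.0, 82.6 and 85.3 at 37 °C and 76.6, 75.6, 79.0 and 72.0 at 39 °C, and it was lower in every 39 °C library also with equal numbers of peaks, at means of 75.7 and 72.2.

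Prrx1 (ENSMUSG00000026586.16, chromosome 1, 163245119 to 163313710, minus strand), a paired-type homeobox factor of mesenchyme, scored 91.4, 91.0, 89.0 and 91.4 at its promoter at 37 °C and 90.2, 89.7, 90.7 and 86.9 at 39 °C. The groups overlapped (difference −1.31, exact permutation p = 0.257), and the sign turned with equal numbers of peaks, to 1.62 (exact permutation p = 0.0571). Distal counts of 6, 7, 7 and 7 at 37 °C and 5, 6, 9 and 4 at 39 °C overlapped. The strongest distal region, in an intron 40.4 kb from the start (chr1:163272796-163275427), averaged 71.7 ± 2.93 at 37 °C and 65.0 ± 2.83 at 39 °C (SD, 4 libraries each), without overlap, but 58.1 and 59.6 with equal numbers of peaks. A region past the 3′ end (chr1:163243538-163244002) was called in 3 libraries at 37 °C, at a mean percentile of 5.41, and in none at 39 °C.

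Vim (ENSMUSG00000026728.9, chromosome 2, 13573927 to 13582826, plus strand) had the strongest promoter of the set, above 97.2% of protein-coding genes by mean percentile. It scored 99.8, 99.1, 99.0 and 99.6 at 37 °C and 99.0, 99.3, 98.5 and 98.7 at 39 °C, and the groups overlapped (exact permutation p = 0.143). The peak spanned the whole gene of 8.9 kb and more in 7 libraries, at 13223 to 16669 bp at 37 °C and 13610 to 15701 bp in 39 °C replicates 1 to 3. In 39 °C replicate 4 it was split in 2, and the better part was 6043 bp wide. Distal counts were 3, 4, 4 and 4 at 37 °C and 4 in each library at 39 °C. The strongest distal region, 16.4 kb upstream (chr2:13552904-13560744), averaged 96.0 ± 1.96 and 95.6 ± 0.52 (SD, 4 libraries each), close to the promoters of Twist1 and Cdh2.

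Fn1 (ENSMUSG00000026193.15, chromosome 1, 71585520 to 71653200, minus strand) was the 1 member whose best-scoring promoter peak was lower in every 39 °C library. It scored 96.2, 94.5, 93.7 and 95.7 at 37 °C and 93.4, 93.0, 92.8 and 89.6 at 39 °C (difference −2.84, exact permutation p = 0.0286). The difference shrank to −1.61 with equal numbers of peaks and the groups then overlapped (exact permutation p = 0.0857). Without 39 °C replicate 4, the lowest library, it was −1.98. Fn1 had few distal peaks, 1 to 3 at 37 °C and 0 to 2 at 39 °C. The stronger distal region, 14.5 kb upstream (chr1:71667348-71667780), was called in 37 °C replicates 1, 2 and 4, at 23.2, 21.4 and 34.0, and in no 39 °C library.

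The classical cadherins differed far more from each other than either did between temperatures. Cdh2 (ENSMUSG00000024304.14, chromosome 18, 16588877 to 16809246, minus strand) scored 98.3, 96.3, 95.5 and 97.4 at its promoter at 37 °C and 96.7, 96.6, 94.9 and 95.9 at 39 °C, with overlapping groups (exact permutation p = 0.314). Cdh1 (ENSMUSG00000000303.12, chromosome 8, 106603351 to 106670246, plus strand) scored 11.1, 21.4, 0 and 20.8 at 37 °C and 0 in all 4 libraries at 39 °C. Where it was called, the Cdh1 promoter peak was 459 to 635 bp wide at a fold enrichment of 2.22 to 3.43, against 3454 to 3762 bp and 62.7 to 111 for Cdh2. Within each library Cdh2 exceeded Cdh1, by 89.8 ± 9.18 percentile points on average (SD, n = 8), which held in 8 of 8 libraries (exact sign-flip permutation p = 0.00781, the smallest 8 libraries can give). With equal numbers of peaks the excess averaged 95.4 ± 1.23 (SD, n = 8). Fold enrichment depends on depth and was compared only within this description.

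The weak Cdh1 promoter peak was called in 3 libraries at 37 °C and 0 at 39 °C. The difference between temperatures of −13.3 had an exact permutation p of 0.143, because 37 °C replicate 3 also lacked the peak. None of the 8 lists had it when cut to equal numbers. The 3 libraries with the peak held 169 M, 64.2 M and 158 M fragments, 37 °C replicate 3 held 49.8 M and the 39 °C libraries 52.7 M to 71.2 M, and the part of depth in this difference was not tested. The change between temperatures in the gap from Cdh1 to Cdh2 was 12.5 points (exact permutation p = 0.0571) and −0.0387 on lists of equal length. Within 5 kb of the starts it was 28.4 (exact permutation p = 0.0286), a window that takes in the intronic region 5.1 kb into Cdh1 described next.

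Distal sites were ordered the other way. Cdh1 had 14, 16, 16 and 17 distal peaks at 37 °C and 12, 11, 11 and 11 at 39 °C, without overlap (difference −4.5, exact permutation p = 0.0286). Cdh2, in a window of 260.4 kb against 106.9 kb for Cdh1, had 9, 8, 7 and 9 at 37 °C and 9, 8, 8 and 4 at 39 °C, with overlap. Per 100 kb of window, Cdh1 had 14.7 ± 1.18 at 37 °C and 10.5 ± 0.47 at 39 °C, and Cdh2 had 3.17 ± 0.37 and 2.78 ± 0.85 (SD, 4 libraries each). Cdh2 was below Cdh1 in 8 of 8 libraries, with a mean difference of −9.65 ± 2.27 peaks per 100 kb (SD, n = 8) (exact sign-flip permutation p = 0.00781). By this density Cdh1 stood above 98.1% of protein-coding genes and Cdh2 above 57%, while by promoter percentile Cdh1 stood above 34.7% and Cdh2 above 88.2%. A high density was not particular to Cdh1, as Snai1 averaged 13.7 per 100 kb over the 8 libraries (above 98.8%), against 12.6 for Cdh1. The gap between Cdh1 and Cdh2 narrowed by 3.83 peaks per 100 kb at 39 °C (exact permutation p = 0.0286), but by 1.02 with equal numbers of peaks (exact permutation p = 0.0857). For lists of equal length the Cdh1 counts were 13, 13, 11 and 13 at 37 °C and 11 in each library at 39 °C.

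**Figure D2:**
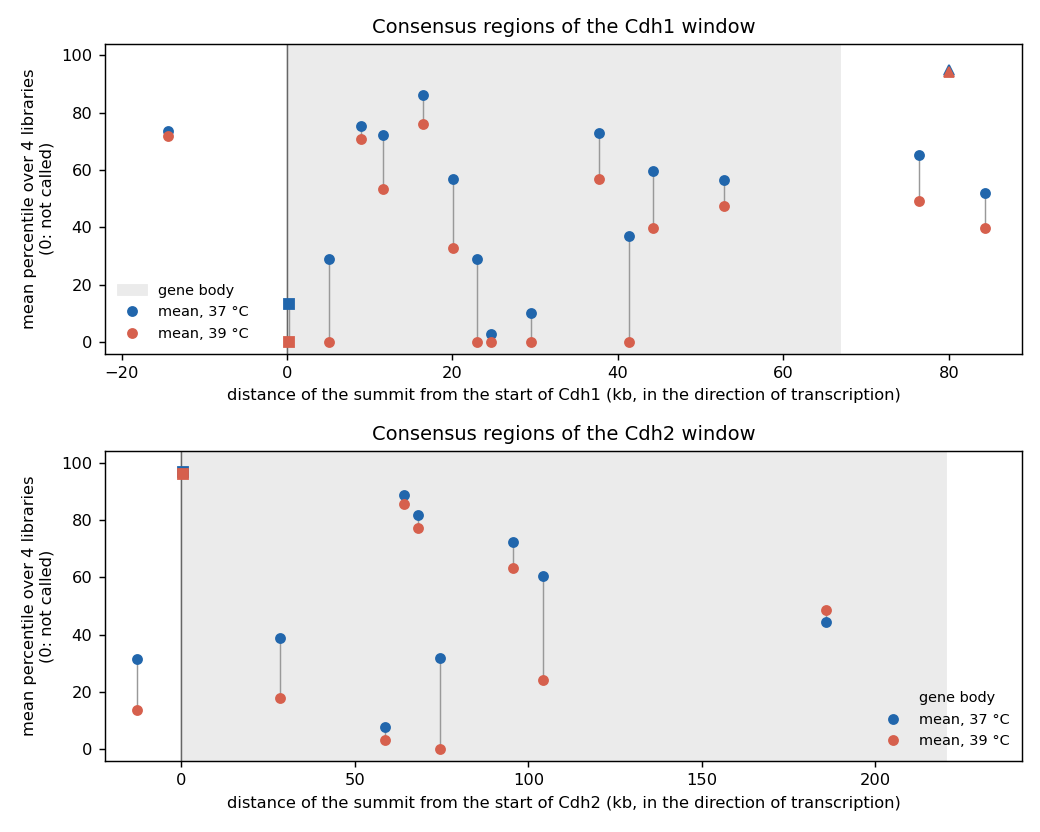
Mean percentile over 4 libraries of each consensus region in the Cdh1 (upper) and Cdh2 (lower) windows, against the distance of its summit from the gene's start in kb. Blue is 37 °C and red 39 °C, lines join the same region, squares are the gene's own promoter, the triangle a promoter of another gene and circles distal regions, with the gene body in grey. The Cdh1 promoter lies at 13.3 and 0 and its introns hold many regions, while the Cdh2 promoter lies at 96.9 and 96.0.

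Of the 17 consensus regions in the Cdh1 window, 11 (64.7%) were called in all 8 libraries, beside 52.9% of all consensus regions. The strongest distal one was intronic, 16.4 kb into the gene (chr8:106618846-106620832). It scored 86.7, 85.0, 84.7 and 88.4 at 37 °C and 75.2, 77.5, 78.1 and 73.9 at 39 °C, and was lower in every 39 °C library with equal numbers of peaks too, at means of 79.6 and 72.5. Another 3 intronic regions were called in all 4 libraries at 37 °C and in none at 39 °C (17.6% of the 17, beside 6.04% of all consensus regions). The first, 5.1 kb into the gene (chr8:106608106-106608840), scored 37.8, 20.1, 19.5 and 38.3. The second, 23.0 kb into the gene (chr8:106626003-106626768), scored 36.8, 20.1, 17.8 and 41.9. The third, 41.4 kb into the gene (chr8:106644391-106645375), scored 44.6, 37.3, 21.1 and 44.7. All 3 were weak peaks, lowest in the 2 shallower 37 °C libraries, and in the best 54845 peaks they were found in 1, 2 and 3 of the 37 °C libraries and in no 39 °C library. A further intronic region 29.6 kb into the gene was called in 3 libraries at 37 °C, at a mean percentile of 10.1, and in none at 39 °C.

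The sequences within 100 bp of the summits of these Cdh1 regions and of the Snai1 region with the same pattern are shown on the plus strand of mm10, since they are the 4 sites called in every 37 °C library and no 39 °C library, and the strongest distal site of the Cdh1 window. Capitals mark matches on either strand to the 6 motifs searched, CACCTG (SNAI and ZEB E-box), CATCTG (TWIST E-box), TGACTCA (AP-1), GGAATG (TEAD), TGTGGT (RUNX) and CCGCCC (SP and KLF), read in reverse complement where the match is on the minus strand.
Cdh1 intron, strongest, chr8:106619695-106619895: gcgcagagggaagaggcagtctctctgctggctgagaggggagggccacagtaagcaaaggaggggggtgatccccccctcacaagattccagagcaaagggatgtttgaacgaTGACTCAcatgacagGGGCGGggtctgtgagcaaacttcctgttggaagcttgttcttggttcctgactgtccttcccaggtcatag
Cdh1 intron, called in every 37 °C and no 39 °C library, chr8:106608349-106608549: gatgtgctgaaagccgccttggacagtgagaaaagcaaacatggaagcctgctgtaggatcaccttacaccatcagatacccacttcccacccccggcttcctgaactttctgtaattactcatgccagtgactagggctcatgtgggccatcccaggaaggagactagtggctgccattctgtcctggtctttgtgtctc
Cdh1 intron, called in every 37 °C and no 39 °C library, chr8:106626248-106626448: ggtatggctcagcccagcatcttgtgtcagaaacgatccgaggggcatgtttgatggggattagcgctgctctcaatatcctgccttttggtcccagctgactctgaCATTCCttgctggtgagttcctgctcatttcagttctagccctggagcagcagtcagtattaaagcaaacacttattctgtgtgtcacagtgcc
Cdh1 intron, called in every 37 °C and no 39 °C library, chr8:106644611-106644811: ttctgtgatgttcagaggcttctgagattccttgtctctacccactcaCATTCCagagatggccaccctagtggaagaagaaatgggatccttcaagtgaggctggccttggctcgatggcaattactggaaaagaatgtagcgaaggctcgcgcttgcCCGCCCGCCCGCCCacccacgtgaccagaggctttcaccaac
Upstream of Snai1, called in every 37 °C and no 39 °C library, chr2:167519863-167520063: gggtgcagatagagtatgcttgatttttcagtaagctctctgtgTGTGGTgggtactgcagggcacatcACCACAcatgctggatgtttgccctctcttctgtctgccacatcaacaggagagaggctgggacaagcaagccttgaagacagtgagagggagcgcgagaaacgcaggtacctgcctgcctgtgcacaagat
The strongest Cdh1 site held an AP-1 and an SP or KLF match. Over all 77 member regions CACCTG was found in 14.3%, against 11.3% of all consensus regions, and CATCTG in 11.7% against 17.2%. AP-1 matches were found in 22.1% against 24.2%, TEAD in 11.7% against 16.9%, RUNX in 33.8% against 24.5%, and SP or KLF in 11.7% against 14.7%. In the Cdh1 window 2 of 17 regions held CACCTG, and in the Cdh2 window 1 of 10. These shares are descriptions of letters in a fixed window.

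In the Cdh2 window 5 of 10 regions were called in all 8 libraries, near the 52.9% of all consensus regions. The strongest distal region, intronic and 64.2 kb from the start, scored 91.0, 87.9, 85.6 and 90.3 at 37 °C and 85.1, 86.9, 86.5 and 83.7 at 39 °C, with overlap, and its means were equal at 83.4 with equal numbers of peaks. A region 74.4 kb from the start was called in 3 libraries at 37 °C, at 40.6, 38.0 and 49.4, and in none at 39 °C. A pair of other intronic regions, chosen after their values were seen, differed in opposite directions with equal numbers of peaks. The region at 104.3 kb averaged 41.2 at 37 °C and 13.5 at 39 °C, and the region at 185.7 kb averaged 17.9 and 40.8, both without overlap. On that scale 1 of the 10 Cdh2 regions was lower and 1 higher at 39 °C, beside 15.5% and 10.1% of all consensus regions.

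Over all 77 regions of the member windows, 44 (57.1%) were called in all 8 libraries, against 52.9% of all consensus regions. Another 4 (5.19%) were called in every 37 °C library and no 39 °C library, against 6.04%, and 0 showed the opposite pattern, against 0.314%. On lists of equal length 0 showed the first pattern, against 1.86%. The percentile lay lower in every 39 °C library in 26 regions (33.8%, against 43.7% of all regions) and higher in 0 (against 1.04%). With equal numbers of peaks it was lower in 10 (13.0%, against 15.5%) and higher in 7 (9.09%, against 10.1%). In the Cdh1 window the corresponding counts were 10 of 17 lower (58.8%), and with equal numbers of peaks 4 of 17 lower (23.5%) and 1 higher (5.88%). The 4 were intronic and called in all 8 libraries. No test compared these shares. Among regions singled out after their values were seen, 1 that lay 24.2 kb downstream of the Snai1 start had one of the wider gaps with equal numbers of peaks, at 44.8, 44.5, 44.4 and 44.5 at 37 °C and 11.5, 16.4, 4.79 and 15.9 at 39 °C.

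**Figure D3:**
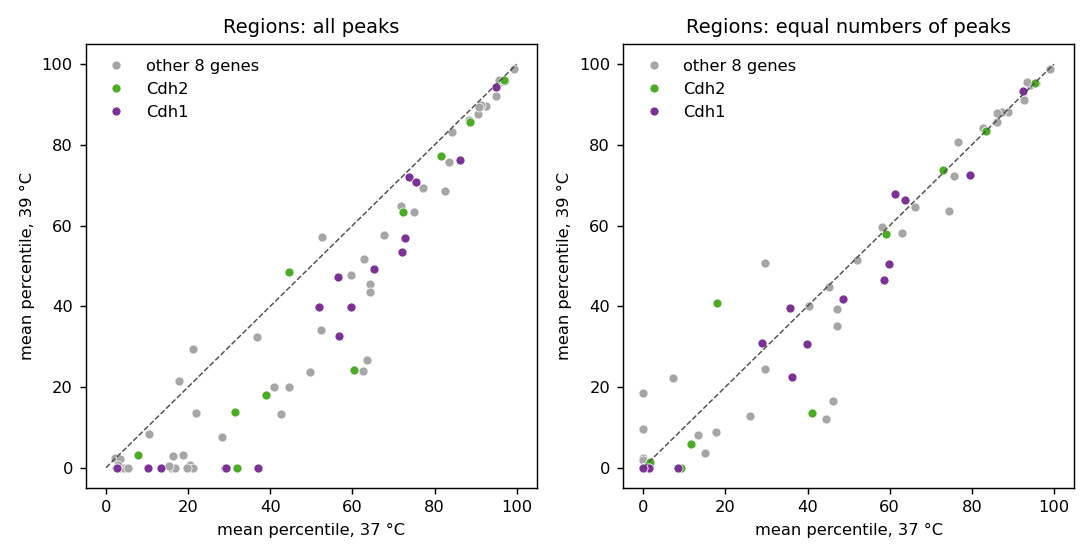
Mean percentile at 39 °C (vertical) against 37 °C (horizontal) of the 77 regions, each mean over 4 libraries, with all peaks (left) and with the 54845 best peaks of each list (right). Purple is Cdh1, green Cdh2 and grey the other 8 genes, and the dashed line marks equality. Most points lie below the line on the left, where 26 regions were lower without overlap and 0 higher, and they spread to both sides on the right, where 10 were lower and 7 higher.

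Promoters of the wider mesenchymal group were mostly called in all 8 libraries, at 90.0% against 59.9% of all genes, while the epithelial group, at 56.7%, was near that background. Of 30 further mesenchymal and TGF-β pathway genes, 27 had a promoter peak in all 8 libraries, 2 (Cdh11 and Thy1) had none, and Col3a1, a fibrillar collagen, had one in 5. The weakest of the 27, named after their values were seen, were Mmp2, Acta2 and Tagln. They averaged 39.8, 46.4 and 57.2 at 37 °C and 20.4, 29.9 and 37.2 at 39 °C, against list medians of 91.5 and 88.7. The groups overlapped for Acta2 only, and for each of these genes with equal numbers of peaks. Of 30 epithelial genes, 17 had a promoter peak in all 8, 2 (Krt5 and Marveld2) had none, and 11 had one in some libraries, each of these in fewer libraries at 39 °C, as were 91% of all genes with a peak in some libraries. Those 11 included Grhl2, a transcription factor that maintains epithelia, and Rab25, a trafficking GTPase, called in 4 libraries at 37 °C and 1 at 39 °C each. St14, a membrane serine protease, was called in 4 and 0, Cdh3 (P-cadherin) in 3 and 0, and Krt18, Cldn4 and Prss8 in 2 and 0 each. The promoter percentile was lower in every 39 °C library for 18 of the 30 epithelial genes (60.0%) and for 8 of the 30 mesenchymal genes (26.7%), beside the 35.2% of all genes given above. The markers of other cell types were also lower, in 6 of 10 (60.0%), as were the neural precursor markers Nes, Sox1, Sox2, Pax6 and Msi1, so a share of this size was not particular to epithelial genes. With equal numbers of peaks it was lower for 10 epithelial genes (33.3%) and 1 mesenchymal gene (3.33%), beside 10.3% of all genes, and higher for 2 (6.67%) and 4 (13.3%), beside 4.73%. On that scale 2 of the 10 markers of other cell types were lower and 0 higher, and of the neural precursor markers Nes and Sox2 were lower and Notch1 higher. The median difference was −12.7 points for the epithelial list, −1.75 for the mesenchymal list, −1.48 for the 10 members and −1.08 for all genes. With equal numbers of peaks these medians were −3.07, 0, −0.02 and 0. For the markers of other cell types the median was −5.21, and −2.36 with equal numbers of peaks, close to the epithelial value.

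**Figure D4:**
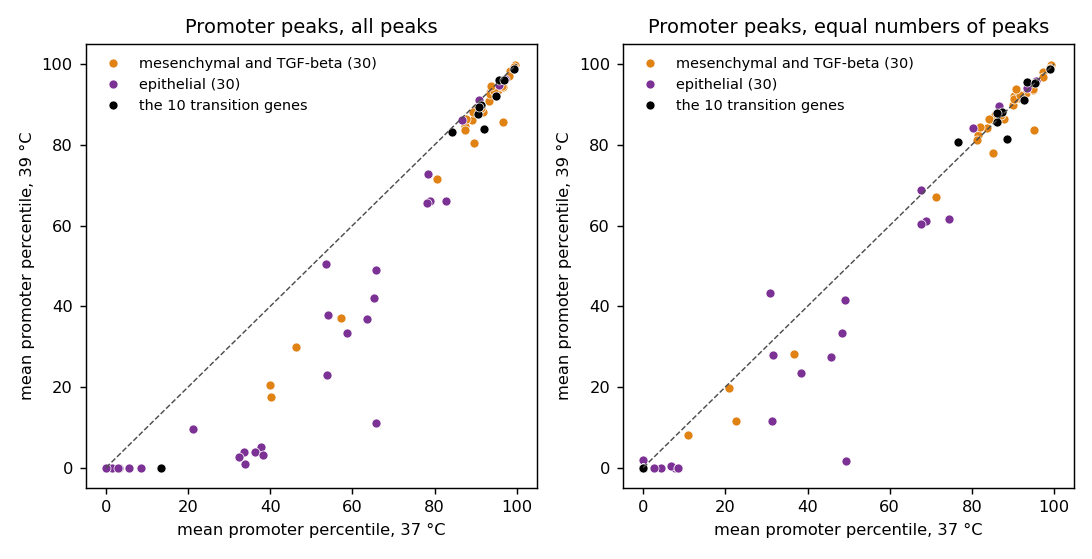
Mean promoter percentile at 39 °C (vertical) against 37 °C (horizontal), each mean over 4 libraries, for 30 epithelial genes (purple), 30 mesenchymal and TGF-β genes (orange) and the 10 transition genes (black), with all peaks (left) and with equal numbers of peaks (right). The dashed line marks equality. Most mesenchymal genes and 9 of the 10 transition genes crowd at the top right, while epithelial genes spread down to 0, with medians of 53.7 at 37 °C and 17.0 at 39 °C on the left and 31.2 and 6.68 on the right.

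Among these 60 genes, those whose promoter percentiles over the 8 libraries lay nearest to Cdh1, by Euclidean distance, were the epithelial genes St14 (15.8 points), Cldn4 (23.5), a claudin of tight junctions, and Ocln (27.4), which encodes occludin. Nearest to Cdh2 were Jup (2.77), which encodes the plakoglobin of adherens junctions and desmosomes and is on the epithelial list, then Smad7 (3.73), an inhibitor of TGF-β signalling, and Cd44 (3.90), a hyaluronan receptor. The points compared share the same 8 libraries and their depths.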

How the data were processed

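The data were 8 ATAC-seq libraries of 50000 cells amplified for 12 cycles. Reads were aligned by the authors to mm10 with Bowtie2 2.4.1, deduplicated with SAMtools 1.15.1 and Picard 2.26.11, and peaks were called per library with MACS3 3.0.0a7, without a control or local background, at a q-value of 0.05. The deposited lists give each peak's position and width, its pileup signal (not scaled for depth), its fold enrichment (a ratio to 1 background for the whole genome), and its p-value and q-value as −log10. The caller kept 1 fragment per position. Peak numbers run without gaps, so no sign of the blacklist filter in the study's methods was seen. The lists hold no read counts for regions that were not called, so libraries were compared by presence and by ranks within a list, and pileup and fold enrichment were not tested between temperatures.

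From these lists, promoter and distal peaks, percentiles and consensus regions (merged at 1 bp of overlap, called by at least 2 libraries) were computed with Python 3.11.15, NumPy 2.4.6 and SciPy 1.17.1 on GENCODE M21 starts, all transcripts included. Regions were named if strongest in a window, or called in at least 3 libraries of 1 temperature and 0 of the other. List genes were named if their presence differed by at least 2 libraries or was 0 throughout, at most 10 of each, or if nearest to a cadherin. Lists were 30 mesenchymal and TGF-β, 30 epithelial, neural precursor and 10 other cell type genes, of which 1 neural precursor marker is not reported here. Tests were exact two-sided permutations of 4 against 4 libraries (70 assignments) and exact two-sided sign-flips over 8 libraries, tested on simulated peak lists. Alternatives were equal numbers of peaks, a −log10 q of at least 5, promoters of 5 kb, the gene start only, flanks of 50 kb, a replicate block and leaving out each library. Promoter sequences are from RefSeq (GRCm38.p6), which matched 5 of 10 members (Snai2, Zeb1, Cdh1, Cdh2 and Fn1 did not match), and region sequences are from the same build. The members and lists were chosen with earlier results of these data known.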

Additional observations from a re-analysis of the deposited data

Results flagged for a closer look

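Of 57 groups of 4 libraries tested for a value far from the rest, 6 had one, and 2 of the 6 were in 39 °C replicate 4, the library with the fewest peaks. About 1 in 20 groups, or 2.9, would by chance if all values were continuous. That rate does not hold for counts, where 3 equal values and 1 other are always flagged. The Fn1 promoter percentile of 39 °C replicate 4 was 89.6, below 92.8 to 93.4 in the other 39 °C libraries. The Twist1 promoter peak of 39 °C replicate 4 was 2696 bp wide, against 2898 to 2937 bp. The Fn1 promoter peak of 39 °C replicate 2 was 3940 bp wide, against 2592 to 2640 bp. The other 3 were counts that differed by 1 from an identical trio: Vim had 3 distal peaks in 37 °C replicate 1 against 4, Prrx1 had 6 there against 7, and Cdh1 had 12 in 39 °C replicate 1 against 11.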

How the results depend on the processing

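Of 485 values under other settings, 436 did not reverse and kept their side of the threshold, or for a count stayed within 1.5 times. A change to 0 was included, as for the Cdh1 promoter difference with equal numbers of peaks. Values that could not change were too, as the Twist1 and Snai2 distal counts of 0, so the tally does not measure robustness. The excess of Cdh2 over Cdh1 at the promoter and of Cdh1 over Cdh2 in distal density held under every setting run. Equal numbers of peaks changed many of the others. On those lists the difference turned to 4.06 (promoter) and 1.5 (distal count) for Zeb1, 0.85 (promoter) for Zeb2, 1.62 (promoter) and 0.75 (distal count) for Prrx1, 0.5 (distal count) for Fn1, and −0.0387 for the change in the promoter gap between Cdh2 and Cdh1, while the change in the density gap was 1.02. Members with fewer distal peaks at 39 °C were then 3, regions called in every 37 °C and no 39 °C library 0 and the reverse 2, regions lower 10 and higher 7, Cdh1 regions lower 4, members lower 0 and higher 2, epithelial genes lower 10 and mesenchymal genes lower 1. With flanks of 50 kb, the Vim distal difference turned to −1.75, regions called in every 37 °C and no 39 °C library were 8 and in all libraries 67. With promoters of 5 kb the change in the promoter gap was 28.4.

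Leaving out 1 library at a time, the change in the promoter gap ran from 9.59 to 16.4 (the latter without 37 °C replicate 3), the change in the density gap from 3.53 to 4.47, and regions called in every 37 °C and no 39 °C library from 4 to 11 (the latter without 37 °C replicate 3). The Cdh2 distal difference of −1 ranged from −1.58 to 0.0833, positive without 39 °C replicate 4, and regions higher at 39 °C were 1 without that library. The Fn1 promoter difference kept its sign but had an exact permutation p of 0.0571 in 4 of 8 such fits, and the change in the density gap had that p without each of the 39 °C libraries. The labels do not say whether replicate numbers pair the samples. Deviations of same-numbered libraries correlated at 0.09, −0.01, −0.06 and −0.13, which cannot settle this because depth also differs between libraries. With the replicate block the change in the density gap was 3.83 at an exact permutation p of 0.125, the smallest 4 pairs allow, so the block could not pass the threshold. Counts by percentile under equal numbers and without 39 °C replicate 4 were added after the data were seen. Peaks present at 39 °C but too weak to be called cannot be told from absent ones in lists without counts.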

Other observations

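Of the 60 genes of both lists, Krt7, a keratin, had the largest difference. It scored 70.7, 63.3, 58.8 and 70.2 at 37 °C and 21.8, 7.16, 15.4 and 0 at 39 °C, and with equal numbers of peaks its means were 49.5 and 1.57. Krt8 averaged 82.7 ± 3.17 and 66.1 ± 10.8, and Krt19 79.0 ± 1.19 and 66.2 ± 4.06 (SD, 4 libraries each), both lower without overlap on either scale. Krt18, the usual partner of Krt8, averaged 1.44 ± 1.73 and 0 with overlap, and Krt5 had no promoter peak. Krt14, a keratin of basal cells, averaged 53.5 ± 3.35 and 50.4 ± 8.65 (SD, 4 libraries each) with overlap, and with equal numbers of peaks it was higher in every 39 °C library, at means of 31.0 and 43.2.

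On the mesenchymal list, the gene that stayed lower in every 39 °C library with equal numbers of peaks was Sparc, which encodes the matrix protein osteonectin. It scored 98.6, 97.1, 92.3 and 98.5 at 37 °C and 86.6, 86.9, 86.9 and 82.8 at 39 °C. The 4 that were higher on that scale were Smad2, Tcf3, Prrx2 and Mmp14, by 0.43, 2.89, 2.03 and 2.42 points. These genes were chosen after their values were seen.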
